A study of Mus musculus with 10 samples.

Results

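Myosin light chains, myosin-binding proteins C and tropomyosins were followed in mouse gastrocnemius as 10 genes: *Myl1*, *Myl3*, *Myl6b*, *Mylpf*, *Myl2*, *Mybpc1*, *Mybpc2*, *Tpm1*, *Tpm2* and *Tpm3*. They were taken by symbol from the 49315 gene identifiers of the count table through the GRCm38 annotation, all 10 were found once, and all 10 were among the 14714 genes with enough counts to be tested. RNA came from gastrocnemius muscle of 10 male mice on a C57BL6J background, 5 AHRfl and 5 AHRmko, with 1 library per mouse. AHRfl mice (animals 11, 12, 13, 15 and 33) carried floxed *Ahr*, the aryl hydrocarbon receptor gene, without Cre. AHRmko mice (animals 8, 9, 19, 22 and 34) also carried HSA-MCM, a tamoxifen-dependent MerCreMer driven by the human skeletal actin promoter, so the deletion is limited to cells in which that promoter is active. Deletion was induced by intraperitoneal tamoxifen before the smoke exposures began, and the study's text times the exposures of both genotypes from tamoxifen delivery. The study describes the controls as littermates. All 10 mice had been exposed to cigarette smoke for 16 weeks, on 5 days per week, as 2 exposures of 1 h per day, at 220 ± 80 mg/m3, and the series description has muscle taken 72 h after the last exposure, the upper end of the range in the study's text. No air-exposed library was part of the comparison. The question here was whether muscle-specific loss of AHR under chronic smoke goes with other levels of these sarcomere genes, and how the genes vary from mouse to mouse. *Ahr* RNA itself, counted over the whole gene, was at 1.33 to 3.13 CPM in AHRfl and 0.927 to 2.17 CPM in AHRmko mice, with overlapping groups and a log2 fold change of -0.35 (adjusted p = 0.844, edgeR). Per gene counts add the floxed exon to all others, so they do not show the deletion in these libraries.

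Each myosin head carries an essential and a regulatory light chain that stiffen its lever arm, myosin-binding protein C links the thick filament to actin, and tropomyosin runs along the thin filament and moves to open the myosin-binding sites when calcium binds troponin. Skeletal muscle uses different genes for the same role in slow and in fast fibres. *Myl3* and *Myl2* encode the slow light chains, which are shared with the ventricle of the heart, *Myl1* and *Mylpf* the fast ones, *Mybpc1* and *Mybpc2* the slow and fast binding proteins, *Tpm3* the slow and *Tpm1* the fast alpha-tropomyosin, and *Tpm2* beta-tropomyosin. *Myl6b* encodes a further slow-type essential light chain. Mouse gastrocnemius is a mainly fast muscle with a small deep region that is richer in slow and type IIa fibres.

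Upstream sequence is shown for the genes whose start region holds a short motif that bears on the deleted receptor or on muscle promoters. RefSeq promoter windows of GRCm38.p6, from 250 bases before to 50 bases after each annotated start, were present for all 10 genes, with 12 windows because *Myl2* and *Tpm3* each have 2. GCGTG, the core of the AHR response element, was searched on both strands and was found in windows of 5 of the 10 genes (*Myl1*, *Myl6b*, *Mybpc1*, *Mybpc2* and *Tpm1*), against 32.4% of all 32851 windows of the same length. CATTCC, the MCAT element, was found for 4 of the 10 genes (*Myl1*, *Myl3*, *Mybpc2* and *Tpm1*), against 14.7% of all windows. A CArG box was found for *Myl3* alone, against 1.63% of all windows, and no MEF2 site was found, against 3.19%. CANNTG, the E-box, was present for all 10 genes and in 72.3% of all windows. The 250 bases before the start are printed 5′ to 3′ for the 5 genes with GCGTG and for *Myl3*, with every match to the AHR core, the MCAT element or the CArG box in capitals. A match on the opposite strand stands as its reverse complement.
Myl1, chr1:66945057-66945306, minus strand: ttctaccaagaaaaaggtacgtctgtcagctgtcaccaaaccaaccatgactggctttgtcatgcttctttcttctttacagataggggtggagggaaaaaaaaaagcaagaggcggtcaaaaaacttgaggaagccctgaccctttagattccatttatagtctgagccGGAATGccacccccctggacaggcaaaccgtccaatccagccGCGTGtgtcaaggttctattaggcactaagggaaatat
Mybpc2, chr7:44524670-44524919, minus strand: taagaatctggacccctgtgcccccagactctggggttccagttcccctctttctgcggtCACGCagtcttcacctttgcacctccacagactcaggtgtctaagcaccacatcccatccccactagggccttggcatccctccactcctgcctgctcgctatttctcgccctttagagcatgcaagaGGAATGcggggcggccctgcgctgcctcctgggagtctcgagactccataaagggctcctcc
Tpm1, chr9:67049214-67049463, minus strand: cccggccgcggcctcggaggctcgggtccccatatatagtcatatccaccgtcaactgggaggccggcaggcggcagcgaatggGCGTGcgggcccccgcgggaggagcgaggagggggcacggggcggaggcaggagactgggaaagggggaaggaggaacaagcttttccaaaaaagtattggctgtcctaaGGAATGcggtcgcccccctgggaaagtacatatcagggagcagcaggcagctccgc
Mybpc1, chr10:88605153-88605402, minus strand: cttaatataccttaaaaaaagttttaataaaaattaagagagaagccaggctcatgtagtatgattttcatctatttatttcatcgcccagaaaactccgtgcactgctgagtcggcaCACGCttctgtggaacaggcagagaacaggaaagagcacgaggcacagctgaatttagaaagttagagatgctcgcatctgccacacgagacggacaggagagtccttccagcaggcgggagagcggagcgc
Myl6b, chr10:128498686-128498935, minus strand: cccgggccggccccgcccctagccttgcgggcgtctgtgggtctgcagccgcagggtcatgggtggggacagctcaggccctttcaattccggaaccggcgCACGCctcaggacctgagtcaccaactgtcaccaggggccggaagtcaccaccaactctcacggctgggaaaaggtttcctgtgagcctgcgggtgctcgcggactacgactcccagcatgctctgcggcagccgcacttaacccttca
Myl3, chr9:110763428-110763677, plus strand: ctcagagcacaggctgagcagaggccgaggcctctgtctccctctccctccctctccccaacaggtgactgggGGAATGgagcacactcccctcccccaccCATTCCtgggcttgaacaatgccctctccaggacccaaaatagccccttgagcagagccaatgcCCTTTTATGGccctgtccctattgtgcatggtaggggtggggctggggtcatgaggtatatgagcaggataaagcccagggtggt
These matches describe the letters in the window and were not tested as sites. Of the fast-type genes, *Myl1*, *Mybpc2* and *Tpm1* held both GCGTG and CATTCC in these windows, but *Mylpf* held neither. *Myl2*, *Tpm2* and *Tpm3* also held neither. The share of all windows with both motifs is not given. Some RefSeq starts differ from the outermost 5′ ends of the GENCODE genes used for the counts. Those of *Myl2* lie 8227 and 7762 bases before the GENCODE gene, so its windows do not cover the GENCODE start, and those of *Mylpf* and *Myl3* lie 2718 and 21817 bases inside it.

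Total counts per mouse were between 30393035 and 37954388, and the 10 genes together took between 4.85% and 6.11% of them. No 2 libraries held the same counts. Libraries were scaled by edgeR's TMM method and values are CPM, a gene's counts scaled to a fixed library size. All 10 libraries held transcripts of 4 Y-linked genes, which summed to 126 to 165 CPM. In 5 of them (AHRfl animals 11, 15 and 33 and AHRmko animals 9 and 22) *Xist* was also present, at 1.16 to 2.32 CPM. It was at most 0.0856 CPM in the other 5, and its origin is not known. *Xist* is the transcript of the inactive X chromosome. The log2 fold changes of the 10 genes and their slopes on a slow-fibre score are therefore also given without those 5 libraries. The slopes on *Myh2*, the slow-type shares, the permutation tests and the other gene lists are not given without them. *Myl2* and *Myl3* are also heart genes. Of 6 cardiac markers, atrial *Myl7* was at 0 in all mice, and the 6 together summed to 8.74 to 12.9 CPM in AHRfl and 4.93 to 13.9 CPM in AHRmko mice. Among them *Myh6*, the alpha heavy chain gene of the heart, was highest in animals 8, 15, 22 and 33 (4.7, 3.95, 2.81 and 2.19 CPM) and at most 0.733 CPM in the other 6 mice. These 4 animals were also the highest for *Myl2* and *Myl3*. Other cardiac markers had another order, with *Myl4* highest in animals 12 and 13 (7.24 and 6.01 CPM), *Tnni3* in animal 19 (0.4 CPM) and *Nppa* in animal 9 (0.244 CPM). *Tnnt2* was at 4.17 to 4.79 CPM in animals 8, 15, 22 and 33, but also at 4.35 CPM in animal 12. The part of cardiac transcripts in the result was not tested. The 7 markers of skeletal myofibres summed to at least 102055 CPM in every mouse. In bulk muscle, fewer fibres of a type and less RNA per fibre cannot be told apart.

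The 10 genes spanned more than 3 orders of magnitude in level, and the fast-type genes led. *Mylpf* was highest at 7972 ± 1173 CPM per kb of exon (SD, n = 10 mice), followed by *Myl1* at 5397 ± 705.5 and *Tpm1* at 3287 ± 539.2. *Mybpc2* at 2047 ± 358.6 and *Tpm2* at 1552 ± 392.2 CPM per kb came next, and these neighbours did not separate in every mouse, since *Tpm2* was below *Mybpc2* in 7 of 10 mice. The slow-type genes lay far below. *Mybpc1* was at 176 ± 71.2, *Myl3* at 72.7 ± 61.4, *Myl2* at 56.6 ± 46.5, *Tpm3* at 19.7 ± 17.7 and *Myl6b* at 3.77 ± 0.438 CPM per kb. Within a mouse the order was nearly fixed, with every gene above the next one in 10 of 10 mice except for the *Mybpc2* and *Tpm2* pair and for *Myl2* over *Tpm3*, which held in 9 of 10. The ranges over mice overlapped for every pair of neighbours other than *Tpm2* and *Mybpc1*. Dividing by the longest coding transcript in place of all exons exchanged *Tpm2* (2076 CPM per kb) and *Mybpc2* (2047 CPM per kb) and kept the other ranks. It moved 8 of the 10 levels by over 1 SD, with *Myl1* at 10344 and *Mylpf* at 11053 CPM per kb. *Tpm1* rose to 7376, *Myl3* to 159, *Myl2* to 124 and *Tpm3* to 53.7 CPM per kb. The exons of *Tpm3* add up to 6085 nt and its longest coding transcript to 2233 nt.

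**Figure D1:**
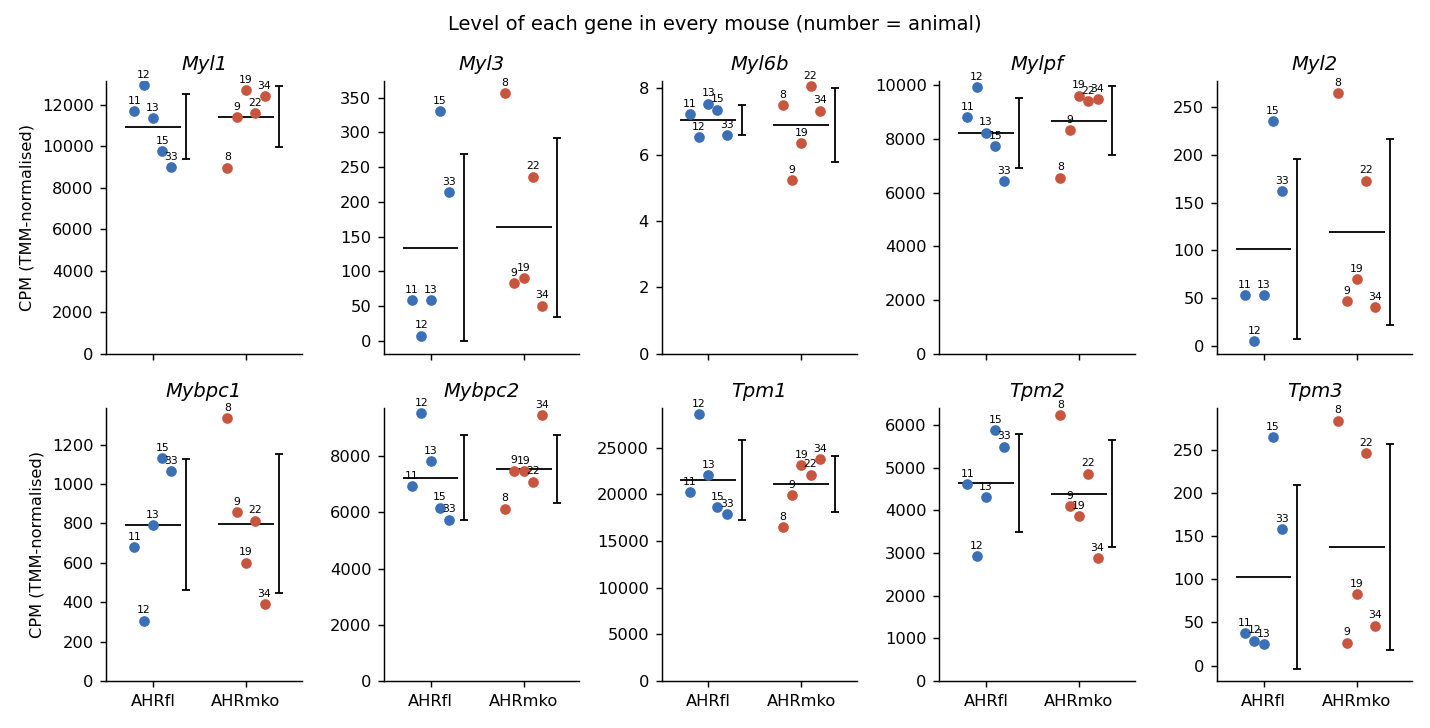
Level of each of the 10 genes in every mouse, in CPM, with AHRfl in blue and AHRmko in red. The axis is zero-based except for *Myl3*, *Myl2* and *Tpm3*, where it extends lower. Points are single mice numbered by animal, horizontal lines are group means and vertical bars are 1 SD (n = 5). The groups overlap for all 10 genes, and *Myl3*, *Myl2* and *Tpm3* spread far more than the fast-type genes, with animals 8, 15, 22 and 33 on top.

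*Myl1* (ENSMUSG00000061816, chr1:66924295-66945404, minus strand), the fast essential light chain gene, was between 8984 and 12952 CPM in AHRfl and between 8974 and 12732 CPM in AHRmko mice. Its means were 10958 ± 1577 and 11427 ± 1481 CPM (SD, n = 5 each), a log2 fold change of 0.06 (SE 0.119, adjusted p = 0.956 by the quasi-likelihood test of edgeR over all genes tested). The highest mouse was 1.44 times the lowest, and the spread between mice of 1 genotype was larger than that of 49.27% of all genes tested.

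*Myl3* (ENSMUSG00000059741, chr9:110741861-110769798, plus strand), the slow essential light chain gene, was at 58.6, 7.35, 58.6, 331 and 214 CPM in AHRfl animals 11, 12, 13, 15 and 33. In AHRmko animals 8, 9, 19, 22 and 34 it was at 356, 82.9, 90.3, 236 and 50.8 CPM. Animals 8, 15, 22 and 33 were high in both genotypes, animal 12 was lowest by far, and the groups overlapped. The log2 fold change was 0.29 (SE 0.942, 95% interval -1.87 to 2.44, adjusted p = 0.979, edgeR). The spread of *Myl3* between mice of 1 genotype was larger than that of 99.88% of all genes tested.

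*Myl6b* (ENSMUSG00000039824, chr10:128494157-128498685, minus strand) was the scarcest of the 10 genes, with 193 to 307 counts per mouse. It had means of 7.04 ± 0.462 CPM in AHRfl and 6.89 ± 1.12 CPM in AHRmko mice (SD, n = 5 each), with a log2 fold change of -0.03 (SE 0.119, adjusted p = 0.98, edgeR). Although it is classed with the slow light chains, its highest mouse was 1.54 times the lowest, against 48.4 times for *Myl3*.

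*Mylpf* (ENSMUSG00000030672, chr7:127208890-127214298, plus strand), the fast regulatory light chain gene, was between 6438 and 9943 CPM in AHRfl and between 6568 and 9621 CPM in AHRmko mice. The log2 fold change was 0.08 (SE 0.130, adjusted p = 0.949, edgeR). *Myl1* and *Mylpf* kept a nearly constant proportion, with 1.23 to 1.40 CPM of *Myl1* for each CPM of *Mylpf* over the 10 mice. Per kb of exon, the 3 essential light chain genes together were 0.637 to 0.723 times the 2 regulatory ones in every mouse. This proportion depends on the length used. By the longest coding transcript *Myl1* averaged 10344 and *Mylpf* 11053 CPM per kb, against 5397 and 7972 by all exons.

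*Myl2* (ENSMUSG00000013936, chr5:122100951-122113472, plus strand), the slow regulatory light chain gene, was at 53.1, 4.93, 53.2, 236 and 162 CPM in AHRfl animals 11, 12, 13, 15 and 33. It was at 264, 47, 69.8, 173 and 41.1 CPM in AHRmko animals 8, 9, 19, 22 and 34. The same 4 animals were high as for *Myl3*, the other 6 were at or below 69.8 CPM, and the groups overlapped. The log2 fold change was 0.23 (SE 0.928, 95% interval -1.90 to 2.36, adjusted p = 0.981, edgeR). Animal 12 held 171 *Myl2* counts and animal 8 held 10058. The spread within genotype was above that of 99.91% of genes. *Myl3* and *Myl2* moved together, with 1.10 to 1.76 *Myl3* counts for each *Myl2* count in every mouse.

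*Mybpc1* (ENSMUSG00000020061, chr10:88518279-88605152, minus strand), the slow isoform gene, was at 679, 307, 790, 1131 and 1065 CPM in AHRfl animals 11, 12, 13, 15 and 33. In AHRmko animals 8, 9, 19, 22 and 34 it was at 1334, 856, 601, 815 and 389 CPM. Animals 12 and 34 were lowest and animals 8, 15 and 33 highest, with overlap of the groups and a 4.35-fold range. The log2 fold change was 0.01 (SE 0.405, 95% interval -0.91 to 0.92, adjusted p = 0.999, edgeR).

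*Mybpc2* (ENSMUSG00000038670, chr7:44501699-44524656, minus strand), the fast isoform gene, was between 5750 and 9527 CPM in AHRfl and between 6140 and 9460 CPM in AHRmko mice. Its log2 fold change was 0.06 (SE 0.144, adjusted p = 0.967, edgeR). Its order of animals was close to the inverse of that of *Mybpc1*, with animals 12 and 34 highest and animals 8, 15 and 33 lowest.

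*Tpm1* (ENSMUSG00000032366, chr9:67022590-67049406, minus strand) took the most counts of the 10 genes, between 579658 and 993459 per mouse. Its means were 21529 ± 4296 CPM in AHRfl and 21106 ± 2991 CPM in AHRmko mice (SD, n = 5 each), with a log2 fold change of -0.03 (SE 0.139, adjusted p = 0.986, edgeR). *Tpm2* (ENSMUSG00000028464, chr4:43514711-43523765, minus strand) was between 2924 and 5882 CPM in AHRfl and between 2876 and 6225 CPM in AHRmko mice, with a log2 fold change of -0.08 (SE 0.220, adjusted p = 0.971, edgeR). Beta-tropomyosin was lowest in animals 12 and 34 and highest in animals 8, 15 and 33, as for *Mybpc1*.

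*Tpm3* (ENSMUSG00000027940, chr3:90072649-90100902, plus strand) was at 37.4, 28.9, 25.1, 265 and 158 CPM in AHRfl animals 11, 12, 13, 15 and 33. It was at 284, 26.9, 82.8, 246 and 46.4 CPM in AHRmko animals 8, 9, 19, 22 and 34. Animals 8, 15, 22 and 33 were high again, but animal 12, at the bottom for *Myl2* and *Myl3*, was not set apart here, and 4 animals lay together between 25.1 and 37.4 CPM. The log2 fold change was 0.42 (SE 0.920, 95% interval -1.69 to 2.52, adjusted p = 0.963, edgeR). The annotation gives *Tpm3* 7 coding transcripts and *Tpm1* 16, and counts per gene add muscle and non-muscle transcripts of both. The related sequence *Tpm3-rs7* took 265 counts over all 10 mice, so few reads were assigned to it.

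**Figure D2:**
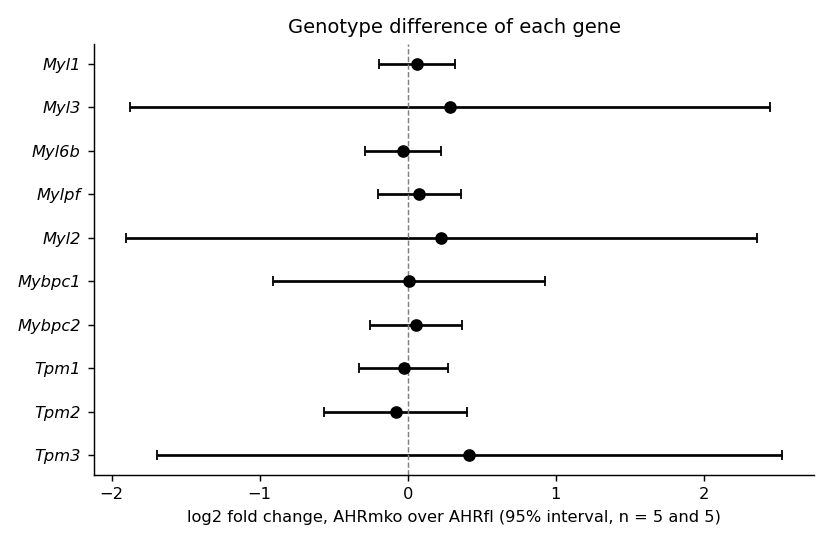
Log2 fold change of AHRmko over AHRfl for each gene, with points for the estimate and bars for the 95% interval from edgeR (n = 5 mice per genotype), and a dashed line at no difference. All intervals include 0, and those of *Myl3*, *Myl2* and *Tpm3* are the widest.

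By edgeR, 0 of the 10 genes reached an adjusted p below 0.05 between the genotypes, where 0.0068% of all genes tested were called. None had an unadjusted p under 0.05, against 6.61% of all genes tested. The DESeq2 Wald test also called 0 of the 10, and 21 of the 10858 genes to which it gave an adjusted p (0.193%). None had groups that did not overlap, against 1.4% of all genes tested. Two-sided exact permutation tests on log2 CPM gave p from 0.46 for *Myl3* to 0.968 for *Mybpc1*, where the assignments of 5 and 5 mice allow no p below 0.00794. The median log2 fold change was 0.06 over the 10 genes and 0.0056 over all genes tested, and 7 of the 10 estimates were above 0. The intervals limited the difference to between -0.33 and 0.37 on the log2 scale for *Myl1*, *Myl6b*, *Mylpf*, *Mybpc2* and *Tpm1*. For *Tpm2* the interval was wider, from -0.57 to 0.40. The intervals of *Myl2*, *Myl3* and *Tpm3*, given above, allow far larger differences in either direction. Without the 5 libraries with *Xist*, which leaves 2 AHRfl and 3 AHRmko mice, 0 of 10 genes were called, where 0.00662% of all genes were called, and the largest estimates were far larger than with all mice. The log2 fold change was 2.35 for *Tpm3* (SE 1.03), 2.32 for *Myl3* (SE 1.52), 2.10 for *Myl2* (SE 1.55) and 0.50 for *Mybpc1* (SE 0.752), with adjusted p from 0.979 to 0.981 in edgeR. *Myl1* (-0.09), *Mylpf* (-0.08), *Mybpc2* (-0.17), *Tpm2* (0.26) and *Myl6b* (0.0063) had the other sign there. The AHRfl mice left were animals 12 and 13, with *Tpm3* at 28.9 and 25.1 CPM. Animals 15 and 33, at 265 and 158 CPM, were among those left out. Of the AHRmko mice, animal 8 (284 CPM) stayed and animal 22 (246 CPM) was left out. The part of this make-up in the estimates was not tested.

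The 4 isoform families gave the slow-type share of transcripts in each mouse, from CPM per kb. *Myl2* was 0.027% to 2.14% of the regulatory light chain transcripts, *Myl3* with *Myl6b* 0.114% to 3.96% of the essential ones, *Tpm3* 0.0843% to 0.986% of the tropomyosins, and *Mybpc1* 2.503% to 14.8% of the 2 binding protein genes. In animal 12, at the low end of the essential share, *Myl6b* (3.53 CPM per kb) was nearly as high as *Myl3* (3.60 CPM per kb). The *Myl2* share depends on the length used. It was 0.0427% to 3.35% by the longest coding transcript and 0.0496% to 3.87% with no division by length, and the difference of its genotype means, AHRmko minus AHRfl, was then 0.119 and 0.137 percentage points. Animal 8 had the highest share in all 4 families, and animal 12 the lowest in all but the tropomyosins, where animal 13 was lowest. AHRmko minus AHRfl was 0.08 percentage points for the regulatory light chains (0.737 ± 0.707% in AHRfl and 0.813 ± 0.801% in AHRmko, SD, n = 5 each). It was 0.19 points for the essential light chains (1.42 ± 1.42% and 1.62 ± 1.45%), -0.42 points for the binding proteins (8.56 ± 4.35% and 8.14 ± 4.28%) and 0.12 points for the tropomyosins (0.347 ± 0.357% and 0.463 ± 0.399%). Each of these differences was smaller than the SD within either genotype, and each changed sign when 1 mouse or another was left out. The regulatory light chain difference ran from -0.26 points without animal 8 to 0.30 without animal 15, and the essential one from -0.39 to 0.69 without the same animals. That of the binding proteins ran from -2.08 without animal 8 to 0.82 without animal 34, and that of the tropomyosins from -0.02 without animal 8 to 0.25 without animal 15.

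**Figure D3:**
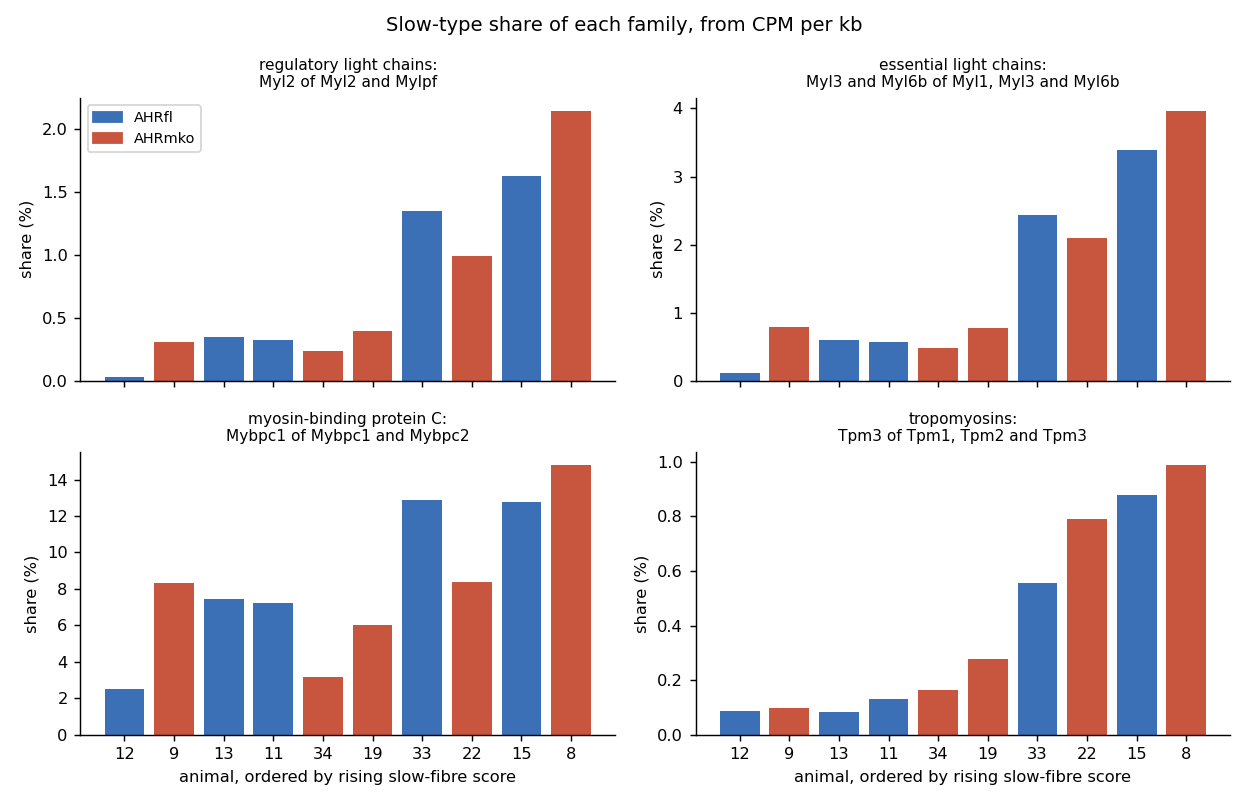
Slow-type share of each isoform family in every mouse, in percent of CPM per kb, with animals in rising order of the slow-fibre score, AHRfl in blue and AHRmko in red, and bars for single mice. The *Tpm3* share climbs from 0.0876% in animal 12 to 0.986% in animal 8 nearly in step with the score, whereas the *Mybpc1* share of animals 9, 11 and 13 (7.24% to 8.35%) is above that of animals 34 (3.17%) and 19 (6.02%).

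The variation between mice was then set against fibre-type genes that are not among the 10. A slow-fibre score, the mean log2 CPM of *Myh7*, *Tnnt1*, *Tnni1*, *Tnnc1* and *Atp2a2*, ran from 1.86 in animal 12 through 2.81 (9), 3.10 (13), 3.62 (11), 4.56 (34), 5.77 (19), 6.90 (33), 7.41 (22) and 7.60 (15) to 7.81 in animal 8. *Myh7*, the slow myosin heavy chain gene, ranged 190-fold, from 3.32 to 631 CPM. In a fit with genotype as a further term, *Tpm3* rose with the score by 0.64 on the log2 scale for each log2 unit (SE 0.0506, adjusted p = 0.00107 by edgeR). It was the only 1 of the 10 to pass, where 1.21% of all genes tested rose and 0.754% fell. Its correlation with the score was r = 0.976 (permutation test, p = 5e-05) and rho = 0.952 (permutation test, p = 0.00012) over 10 mice, and r = 0.991 without animals 8 and 12, which are farthest from the median. *Myl2* and *Myl3* had slopes almost as large, 0.59 (SE 0.119, adjusted p = 0.0607) and 0.58 (SE 0.122, adjusted p = 0.066) in the same edgeR fit, but scattered more about the line. Their correlations with the score were r = 0.891 (rho = 0.915) and r = 0.892 (rho = 0.879), with permutation p = 0.0001 and 0.00022 for r, and r = 0.912 and 0.881 without animals 8 and 12. In all, 20 relations of this kind were computed, 2 for each gene. The slopes of the other genes were between -0.092 for *Mybpc2* and 0.19 for *Mybpc1*, with none past the threshold.

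Without animal 9, 7 of the 10 genes passed, with *Myl2*, *Myl3* and *Tpm2* rising and *Myl1*, *Mybpc2* and *Tpm1* falling beside *Tpm3*, and 7.35% of all genes tested were called in that fit against 1.96% with all mice. Without animal 12, *Myl2* and *Tpm3* passed (0.616% of all genes), without animal 34 *Tpm2* and *Tpm3* (1.38%), and without the genotype term *Myl2*, *Myl3* and *Tpm3* (2.25%). *Tpm3* passed with each single mouse left out. With only the 5 libraries without *Xist*, the slope of *Tpm3* was 0.70 (adjusted p = 0.275) and those of *Mybpc1*, 0.62 (adjusted p = 0.0337), and *Tpm2*, 0.35 (adjusted p = 0.0104), passed in edgeR, where 0.974% of all genes were called.

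Animals 9, 11 and 13 were where the slow-type genes parted. They held little slow heavy chain, with *Myh7* at 5.7, 14.3 and 9.34 CPM, and *Tpm3*, at 26.9, 37.4 and 25.1 CPM, was near its level in animal 12 (28.9 CPM). Yet *Myl2*, at 47, 53.1 and 53.2 CPM, was well above its level in animal 12 (4.93 CPM) and near that of animal 34 (41.1 CPM), whose *Myh7* was 48.1 CPM. There were 8.25, 3.71 and 5.70 CPM of *Myl2* for each CPM of *Myh7* in these 3 animals and 1.49 in animal 12, but only 0.393 to 0.855 in the other 6. *Myh2*, the heavy chain gene of type IIa fibres, was at 2127, 1612 and 2084 CPM in animals 9, 11 and 13 against 297 CPM in animal 12. Other fibre-type genes were also higher in these 3 than in animal 12, such as *Tnnt1* (11.8, 14.6 and 15.8 against 3.46 CPM) and *Atp2a2* (74.6, 76.1 and 77.2 against 44.7 CPM), and *Myh2* was taken up after these values were seen. *Myh2* ranged 14.2-fold over the 10 mice, up to 4218 CPM in animal 15, and itself went with the slow-fibre score at r = 0.759 (permutation test, p = 0.00298) and rho = 0.733 over 10 mice, with r = 0.64 without animals 8 and 12, so the 2 measures are not independent.

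**Figure D4:**
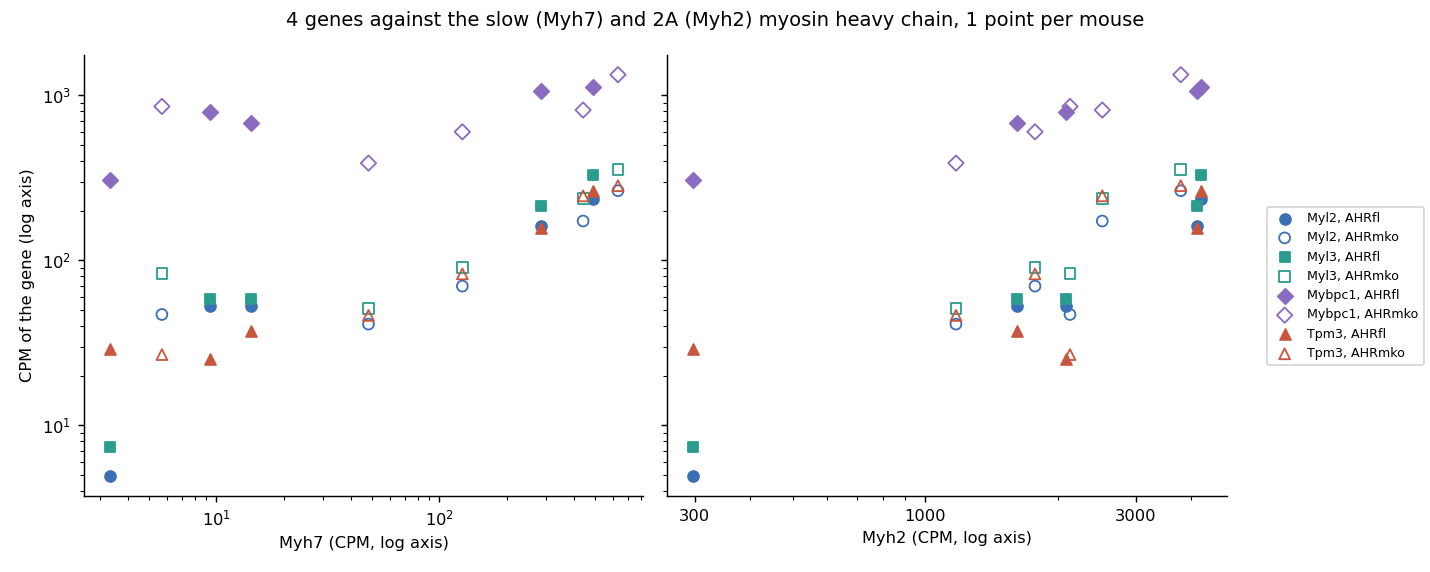
CPM of *Myl2*, *Myl3*, *Mybpc1* and *Tpm3* (vertical, log axis) against CPM of *Myh7* (left, log axis) and *Myh2* (right, log axis), 1 point per mouse, with filled symbols for AHRfl and open symbols for AHRmko. At *Myh7* below 15 CPM, *Myl2* and *Myl3* split between animal 12 (4.93 and 7.35 CPM) and animals 9, 11 and 13, while against *Myh2* animal 12 is lowest on both axes. *Tpm3* rises steadily with *Myh7* above 15 CPM, and against *Myh2* animals 9 and 13 (26.9 and 25.1 CPM) lie far below animal 22 (246 CPM) at similar *Myh2*.

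With *Myh2* in place of the score, an alternative chosen after seeing these values, 8 of the 10 genes passed in edgeR. *Mybpc1* (0.56), *Tpm2* (0.30), *Myl2* (1.44) and *Myl3* (1.43) rose for each log2 unit of *Myh2*, with adjusted p from 0.00234 to 0.00351, where 3.91% of all genes tested rose. *Tpm1* (-0.18), *Mybpc2* (-0.20), *Mylpf* (-0.15) and *Myl1* (-0.14) fell, with adjusted p from 0.00459 to 0.0425, where 2.9% of all genes tested fell. *Tpm3* had a slope of 0.85 (SE 0.317, adjusted p = 0.153) and *Myl6b* of 0.03 (SE 0.056, adjusted p = 0.751). When single mice were omitted, 6 to 8 of the 10 genes passed, where 2.68% to 6.94% of all genes were called, and *Myl2*, *Myl3*, *Mybpc1*, *Mybpc2* and *Tpm2* passed each time. The correlation of *Mybpc1* with *Myh2* was r = 0.934 (permutation test, p = 5e-05) and rho = 0.939 (permutation test, p = 0.00022), and r = 0.934 again without animals 12 and 15, which lie farthest from the median. For *Tpm3* the correlation was r = 0.663 (permutation test, p = 0.0207) and rho = 0.636, and r = 0.67 without the same 2 animals. *Myh4* and *Myh1*, the other fast heavy chain genes, moved apart, with *Myh4* falling (-0.16, adjusted p = 0.00953) and *Myh1* rising (0.49, adjusted p = 0.0364) with *Myh2*.

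Both measures were also placed in a single edgeR fit with genotype. *Myh2* was taken up because it differed between the same animals as *Myl2* and *Myl3*. *Mybpc1* differed between them too (856, 679 and 790 CPM in animals 9, 11 and 13 against 307 CPM in animal 12). *Tpm2* was also higher, and *Myl1*, *Mylpf*, *Mybpc2* and *Tpm1* lower, in animals 9, 11 and 13 than in animal 12. The p-values of all these genes on *Myh2*, here, in the fit with *Myh2* alone and in the correlations, restate that observation. So does the count of genes that passed on *Myh2* alone. The level of *Tpm3* in these animals was part of what was seen, so its p-value on the score beside *Myh2* also follows that choice. All of these come from the same 10 mice and are no independent support. Per log2 unit of the score, *Tpm3* rose by 0.75 (SE 0.0697, adjusted p = 0.0109) and was the only 1 of the 10 genes to pass, where 0.068% of all genes tested rose. Its slope on *Myh2* in that fit was -0.25 (95% interval -0.53 to 0.02, adjusted p = 0.429). Per log2 unit of *Myh2*, *Myl3* rose by 1.01 (SE 0.0866, adjusted p = 0.000894) and *Myl2* by 1.00 (SE 0.107, adjusted p = 0.00669), where 0.333% of all genes tested rose. Both also had positive slopes on the score, 0.27 (adjusted p = 0.0639) and 0.28 (adjusted p = 0.198). For *Mybpc1* the slope was 0.57 on *Myh2* (adjusted p = 0.0909) and -0.01 on the score (adjusted p = 0.985). With each mouse left out, *Myl3* passed on *Myh2* each time (slope 0.906 to 1.14), and *Myl2* did not pass only without animal 12 (slope 0.787, adjusted p = 0.203). *Tpm3* kept a slope of 0.661 to 0.906 on the score, but its adjusted p was 0.074, 0.0579 and 0.0526 without animals 13, 8 and 22. On the score, *Myl2* passed too without animal 11 (slope 0.295, adjusted p = 0.0329) and without animal 33 (0.292, adjusted p = 0.0251), and *Myl3* without animals 33 and 19 (slope 0.275 in both, adjusted p = 0.0202 and 0.0363). In these fits 0.0602% to 0.127% of all genes were called on the score and 0.0603% to 0.706% on *Myh2*. *Mybpc1* passed on *Myh2* without animals 8, 12 or 34. The 10 mice leave 6 residual degrees of freedom for these 4 coefficients.

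**Figure D5:**
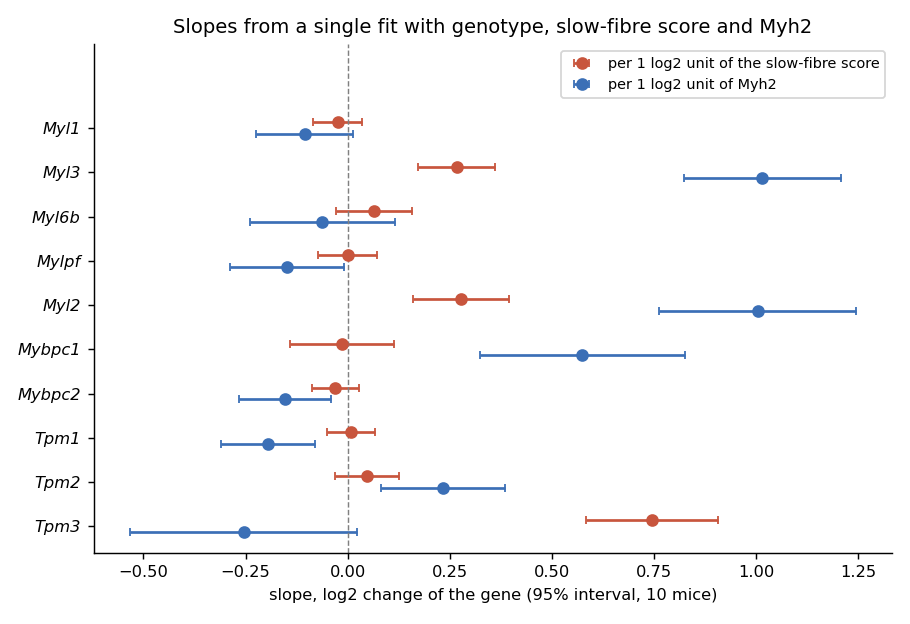
Slopes of each gene from a single edgeR fit with genotype, slow-fibre score and *Myh2*, in log2 units per log2 unit, with red for the score, blue for *Myh2*, bars for 95% intervals and a dashed line at 0. With all 10 mice, *Tpm3* passed on the score (0.75) and *Myl3* (1.01) and *Myl2* (1.00) on *Myh2*, while the slope of *Mybpc1* on *Myh2* (0.57, adjusted p = 0.0909) did not pass.

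When the score was added to the genotype comparison, the genotype estimates of the variable genes had smaller errors. The SE for *Tpm3* went from 0.920 to 0.216, with a log2 fold change of -0.16 (adjusted p = 0.909), and *Myl2* had -0.09 (SE 0.479, adjusted p = 0.981) and *Myl3* 0.16 (SE 0.496, adjusted p = 0.965). *Mybpc2* (0.17, SE 0.0996) and *Tpm2* (-0.21, SE 0.143) had adjusted p of 0.765 and 0.792 there, and 0 of 10 genes were called by edgeR, where 0.0136% of all genes tested were called.

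Genes whose levels over the 10 mice were most like each of the 10 were sought among 6956 others with a mean of at least 10 CPM, by Pearson's r of log2 CPM, as a description. *Tpm3* was closest to *Tnni1* (r = 0.979) and *Tnnc1* (0.972), the slow troponin I and C genes, which are part of the score. *Myl2* was closest to *Acss2* (0.981) and *Myoz2* (0.978), and *Myl3* to *Acss2* (0.985) and *Bdh1* (0.982). *Acss2* encodes an acetyl-CoA synthetase, *Bdh1* a mitochondrial enzyme of ketone body use and *Myoz2* a Z-disc protein of slow and cardiac muscle. *Mybpc1* was closest to *Homer2* (0.984) and *Rcan2* (0.983), and *Tpm2* to *Lpl* (0.978), lipoprotein lipase, and *Rcan2* (0.974). On the fast side, *Tpm1* was closest to *Tnnt3* (0.983), fast troponin T, and *Rtn2* (0.981), *Mybpc2* to *Phka1* (0.977), the muscle subunit of phosphorylase kinase, and *Rora* (0.969). *Mylpf* was closest to *1700120C14Rik* (0.962) and *Gapdh* (0.961), and *Myl1* to *Ssr1* (0.958) and *Rtn4* (0.957). *Myl6b* had no close match, with *Yae1d1* (0.821) and *Nrf1* (0.801) at the top. The points share libraries and their composition.

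The other genes of the sarcomere were taken from lists set by role, and 0 of them passed between the genotypes in edgeR, where 0.0068% of all genes tested were called. Among 12 tested genes of other light chains, their kinases and phosphatase, the median log2 fold change was -0.0004, and *Myl4*, the embryonic and atrial light chain gene, had the lowest p (-0.52, unadjusted p = 0.0398, adjusted p = 0.725). Among 11 other binding protein, tropomyosin and filament-length genes the median was 0.06, with *Tmod1* lowest in p (0.16, adjusted p = 0.762). Among 17 other thick-filament, M-band and Z-disc genes it was 0.10, with *Myoz3* lowest (0.29, adjusted p = 0.606). It was 0.07 over 7 heavy chain genes, with *Myh8* lowest (-0.14, adjusted p = 0.815), and 0.25 over 6 troponin genes, with *Tnnc2* lowest (0.10, adjusted p = 0.927).

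On the slow-fibre score, where 1.21% of all genes tested rose and 0.754% fell, 2 of the 12 genes of the light chain list rose, *Myl10* (0.70, adjusted p = 0.0127), a further regulatory light chain gene, and *Myl12a* (0.09, adjusted p = 0.0184), a non-sarcomeric one. *Myl10* was scarce, with means of 1.55 CPM in AHRfl and 1.62 CPM in AHRmko mice. Its lowest value, 0.0564 CPM, was below the level of 3 counts. None of the 11 filament-length genes passed, with *Lmod2* lowest in p (0.24, adjusted p = 0.0713), and 1 of the 17 thick-filament and Z-disc genes fell, the M-band gene *Myom2* (-0.08, adjusted p = 0.0367). Of the 7 heavy chain genes 3 rose, *Myh7*, which is part of the score, *Myh3* (0.38, adjusted p = 0.00631) and *Myh7b* (0.75, adjusted p = 6.83e-05), and the 3 of 6 troponin genes that rose are all part of the score. On *Myh2*, calls were common over the transcriptome, with 3.91% of all genes tested rising and 2.9% falling. In the filament-length list 2 of 11 rose, *Lmod2* (0.47) and *Lmod3* (0.17), which lengthen thin filaments, and 1 fell, *Tmod4* (-0.10), which caps them. In the thick-filament and Z-disc list 3 of 17 rose, *Myoz2* (0.94), *Myom3* (0.91) and *Actn2* (0.36), and 2 fell, *Myoz1* (-0.16) and *Actn3* (-0.19), the fast-type counterparts of *Myoz2* and *Actn2*. In the light chain list 2 of 12 rose, *Myl10* (1.51) and *Myl12a* (0.17), and 1 fell, *Mylk2*, the skeletal kinase of the regulatory light chains (-0.15, adjusted p = 0.0135). Of the 6 troponin genes *Tnnt1* (1.63) rose and *Tnnt3* (-0.14), *Tnnc2* (-0.15) and *Tnni2* (-0.15) fell.

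Of 8 lists of markers of other cells, the macrophage list was closest to the score and the endothelial list to *Myh2*, among 16 relations. The 3 macrophage markers summed to 5.05 to 9.43 CPM in AHRfl and 4.37 to 11.5 CPM in AHRmko mice, and went with the score at r = 0.856 (permutation test, p = 0.00112, Benjamini-Hochberg adjusted p = 0.0179) and rho = 0.879, with r = 0.847 without animals 8 and 12. The 3 endothelial markers summed to 91.6 to 148 CPM and 106 to 187 CPM, and went with *Myh2* at r = 0.749 (permutation test, p = 0.00879, Benjamini-Hochberg adjusted p = 0.0703) and rho = 0.745, with r = 0.688 without animals 12 and 15. The 5 smooth muscle markers, a tissue that also uses *Tpm1* and *Tpm2*, summed to 147 to 211 CPM and 148 to 227 CPM. The methods state that red gastrocnemius was dissected for fibre bundles in the study and that the rest of the muscle went to mitochondrial isolation or was frozen. The part of these in the spread of the 10 genes was not tested.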

How the data were processed

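RNA of gastrocnemius from 10 mice (5 AHRfl, 5 AHRmko) was measured by poly(A)-selected paired-end sequencing. Per the labels, reads were trimmed with Trimmomatic 0.36 and mapped to GRCm38 with STAR 2.5.2b, and the authors deposited raw counts of unique reads on exons per Ensembl gene, not normalised and not pooled. The annotation release is not given in the sources used here, and whether counting used strand is not clear. Antisense genes overlap *Myl2*, *Myl3*, *Mybpc1* and *Mybpc2*. The annotation used here, GENCODE M21, held 99.47% of the identifiers.

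The analysis ran in edgeR 4.0.16 (R 4.3.3) with filterByExpr (minimum count 10, total 15), TMM and the robust quasi-likelihood test, and p-values were adjusted by the Benjamini-Hochberg method across 14714 genes, with 0.05 as threshold. CPM are TMM-normalised, and for log2 CPM the prior count was 2. Intervals of 95% come from the fit. The 10 genes were also tested by exact permutation over every assignment of 5 and 5 mice, and correlations by 100000 permutations (scipy 1.17.1). The code was tested on simulated data. Levels per kb used the union of exons. Total counts were 30393035 to 37954388, for which 3 counts are 0.079 to 0.0987 CPM before TMM, a floor that covers counting error only. Alternatives were DESeq2 1.42.0, other scaling, filters and covariates, and leaving out libraries.

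The 10 genes and the lists were chosen with earlier results of these data known. All 10 are named, with the 2 genes most like each, and in each list the genes past the threshold or, where none passed, the gene of lowest p. Promoter sequence is from RefSeq, GRCm38.p6. Litters are not named in the sample titles and were not used. Each mouse is 1 replicate.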

Additional observations from a re-analysis of the deposited data

How the results depend on the processing

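The count of the 10 genes called between genotypes was 0 under every alternative run. Over all genes, 1 was called in edgeR, 21 with the DESeq2 Wald test, 5 without a filter on low counts, 2 with the slow-fibre score as covariate, 1 without the libraries with *Xist*, and 1 to 6 with a mouse left out (6 without AHRmko animal 34). No log2 fold change of the 10 passed, and 29 of 180 alternative values had the other sign. These were *Mybpc1* with total counts alone (-0.0105), and with the slow-fibre score as covariate *Myl2* (-0.0888), *Mybpc1* (-0.118), *Tpm1* (0.0622) and *Tpm3* (-0.16). Without the libraries with *Xist* they were *Myl1* (-0.0928), *Mylpf* (-0.0842), *Myl6b* (0.0063), *Mybpc2* (-0.17) and *Tpm2* (0.26), and *Tpm3* (2.35), *Myl3* (2.32), *Myl2* (2.10) and *Mybpc1* (0.50) lay far above their values with all mice (0.42, 0.29, 0.23 and 0.01) without passing. With a mouse left out, values ran from -0.0032 to 0.14 for *Myl1*, -0.30 to 0.80 for *Myl2*, -0.22 to 0.95 for *Myl3*, 0.00066 to 0.16 for *Mylpf*, -0.0948 to 0.0548 for *Myl6b*, -0.26 to 0.18 for *Mybpc1*, -0.0382 to 0.18 for *Mybpc2*, -0.0882 to 0.0959 for *Tpm1*, -0.24 to 0.037 for *Tpm2* and -0.0322 to 1.14 for *Tpm3*. The AHRfl mice left without the *Xist* libraries were animals 12 and 13. The causes were not tested.

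For the slope on the slow-fibre score, 1 of the 10 genes passed, 3 without the genotype term, 8 with *Myh2* alone, 2 without the libraries with *Xist*, and 1 to 7 with a mouse left out (7 without AHRmko animal 9). Over all genes the count was 289, and 131 with *Myh7* alone, 1003 with *Myh2* alone, 16 with *Myh2* beside the score, 147 without the libraries with *Xist*, and 54 to 1097 with a mouse left out (54 without AHRfl animal 15, 1097 without AHRmko animal 9). With *Myh2* beside the score, the slopes of *Mybpc1* (-0.0129) and *Tpm1* (0.0082) had the other sign. The fits with *Myh2*, with and without single mice, and those of slopes without the *Xist* libraries were chosen after seeing the data. With lengths of the longest coding transcript, 8 of 10 levels per kb moved by over 1 SD. The slow-type share differences changed sign with 4 of 10 mice left out in turn for both light chain families and the binding proteins and with 1 of 10 for the tropomyosins, within 1 SD of the spread between mice. Share differences without the libraries with *Xist* were not computed. No paired analysis was run, because the sample titles name no litter by which mice could be matched. With 5 mice per genotype, the intervals of *Myl2*, *Myl3* and *Tpm3* are wide, and *Myl6b*, with 193 to 307 counts per mouse, has the fewest counts.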
